A study of Mus musculus with 6 samples.

Results

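Goblet cell genes were followed in intestinal tumor organoids of 3 Trp53 genotypes. The set held 10 genes chosen by symbol (Muc2, Tff3, Agr2, Spdef, Fcgbp, Zg16, Spink4, Creb3l1, Foxa3 and Muc13), which took 11 of the 36172 entries in the deposited expression table, or 10 of its 35794 distinct gene identifiers. Their values were read in all 6 libraries, 2 for each genotype. Organoids are cultures grown in a gel from epithelial cells, here from small intestinal tumors of C57BL/6 mice aged 15-20 weeks, and each library came from the organoids of a different mouse.

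All 6 libraries carried the Apc truncation at codon 716 (Apc(D716)). The paper reports that tumor cells of this strain lose the other Apc allele, but its assay used Trp53 +/R270H tumors and not these organoids. The control genotype was Trp53 +/+. The Trp53 flox/flox genotype carries on both alleles a stop cassette ahead of the R270H mutation (LSL-R270H) and is null for p53 until the cassette is removed. The Trp53 R270H/R270H genotype (labelled M/M) is that allele after recombination by villin-CreER, a tamoxifen-dependent recombinase driven by a promoter of the gut epithelium. The methods name tamoxifen only for mice made to express R270H, so the mutation and the tamoxifen treatment cannot be told apart. Trp53 itself was at 75.9 and 74.3 rpkm (reads scaled to gene length and to library size) in Trp53 +/+, at 1.73 and 2.48 rpkm in Trp53 flox/flox, and at 72.8 and 82.7 rpkm in Trp53 R270H/R270H, as the labels require.

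Goblet cells are the mucus-making cells of the intestine. They arise from Atoh1-expressing secretory precursors under the factors Spdef, Foxa3 and Creb3l1, and they pack the gel-forming mucin Muc2 into granules together with Tff3, Fcgbp, Zg16 and Spink4. Agr2 is a protein disulfide isomerase of the endoplasmic reticulum that mucin folding requires, and Muc13 is a mucin of the cell membrane that other intestinal epithelial cells also carry.

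The label goblet cell was borne out only in part by these libraries. The lowest value in the deposited table is 1 rpkm, and 23760 entries stood at it in all 6 libraries. Zg16, a lectin-like granule protein, was among them. Muc2, the defining product of the goblet cell, has 2 entries in the table. One of them was at the floor of 1 rpkm in all 6 libraries. The other read 1.14 and 1.06 rpkm in Trp53 +/+, 1 and 1 in Trp53 flox/flox, and 1.26 and 1.42 in Trp53 R270H/R270H. Muc2 lies at chr7:141690340-141754693 (GRCm38, plus strand), and the GENCODE annotation marks this locus as fragmented, so its low value is uncertain. Spdef, the factor that drives goblet cell maturation, exceeded 2 rpkm in 1 library alone. The set is therefore described by its members and not as a count of goblet cells. The epithelial identity was plain: Epcam, a surface protein of epithelial cells, ranged from 280 to 399 rpkm.

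The spread between the libraries of a genotype differed. The median standard deviation of log2(rpkm+1) over genes was widest in Trp53 flox/flox, at 0.247, against 0.0463 in the control and 0.0621 in the R270H organoids. Sequencing depth is not in the deposited table. The steps between its low values in short genes fitted best at 44.25 to 48.45 M reads. The fit of 48.45 M, for Trp53 flox/flox 1, rested on 7 genes, against 12 to 20 in the other libraries, and its next-best value was 56.05 M, while that of Trp53 +/+ 1 was 41.05 M, so these depths are rough. In library 2 of Trp53 flox/flox, Gkn1 of the stomach read 10.6 rpkm and Acta2 of smooth muscle 11.5 rpkm, while Gkn1 was at the floor in the other 5.

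Of the 10 genes, 8 had at least 4 rpkm in at least 1 library and were tested, while Muc2 and Zg16 did not reach that level. Spdef passed the filter only through library 2 of Trp53 flox/flox. In Trp53 +/+ the mean level was highest for Agr2 (211 ± 16.5 rpkm, SD, n = 2), above that of 97.7% of the 10042 entries tested. Tff3 followed at 110 ± 16.9 rpkm, then Muc13 at 69.1 ± 4.16, Spink4 at 34.5 ± 8.32, Fcgbp at 19.5 ± 2.00, Foxa3 at 15.1 ± 3.22 and Creb3l1 at 8.12 rpkm. The libraries of one gene in this order did not overlap those of the next, but Fcgbp and Foxa3 came close, the lowest of the former at 18.1 and the highest of the latter at 17.4 rpkm, and were not separated beyond their spread. Muc2, Zg16 and Spdef stood at or near the floor. The summed level of the 11 entries was 509 and 436 rpkm in Trp53 +/+, 259 and 208 rpkm in Trp53 flox/flox and 268 and 265 rpkm in Trp53 R270H/R270H. The sum was lower in all 4 libraries without wild-type Trp53, and Agr2 and Tff3 made up most of it.

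**Figure D1:**
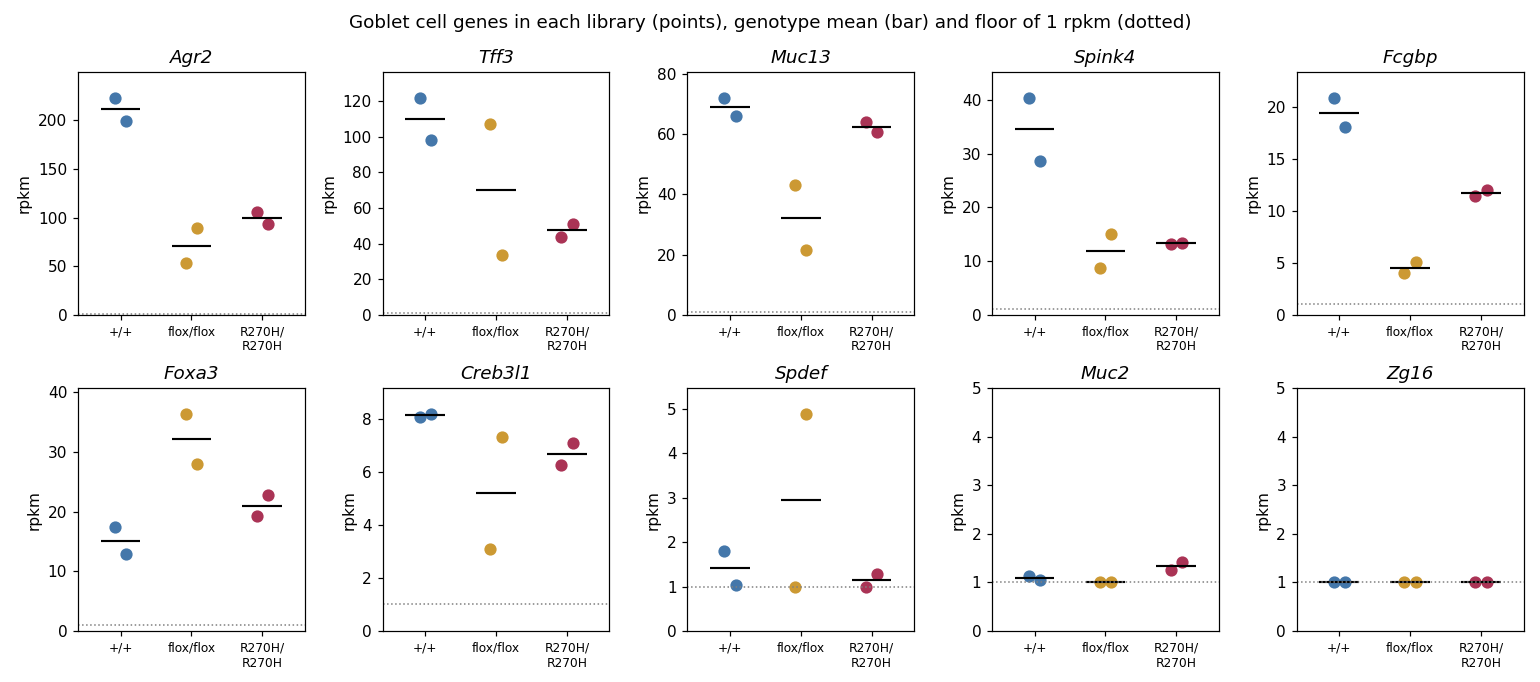
Level of each goblet cell gene in rpkm (vertical axes, separate scales from 0) by Trp53 genotype (horizontal axes). Points are the 2 libraries of a genotype, bars their mean and the dotted line the floor of 1 rpkm. For Muc2 the entry above the floor is drawn. Agr2, Spink4 and Fcgbp were highest in Trp53 +/+, Foxa3 was highest in Trp53 flox/flox, and Zg16 lay on the floor throughout.

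Agr2, Spink4 and Fcgbp were lower in every library of the mutant genotypes than in Trp53 +/+, while Foxa3 was highest in Trp53 flox/flox. Agr2 and Fcgbp ranked the genotypes alike, with Trp53 flox/flox lowest. The difference of Agr2 in Trp53 R270H/R270H did not pass the test used below. The bases before the start sites of Agr2, Fcgbp and Foxa3 are given here because these genes moved in opposite directions in the same libraries. They are the 250 bases before the RefSeq start on GRCm38.p6, written 5′ to 3′ on the strand of the gene, at chr12:35992675-35992924 (plus strand) for Agr2, chr7:28070986-28071235 (plus strand) for Fcgbp and chr7:19023540-19023789 (minus strand) for Foxa3. Capitals mark the searched motifs.
Agr2: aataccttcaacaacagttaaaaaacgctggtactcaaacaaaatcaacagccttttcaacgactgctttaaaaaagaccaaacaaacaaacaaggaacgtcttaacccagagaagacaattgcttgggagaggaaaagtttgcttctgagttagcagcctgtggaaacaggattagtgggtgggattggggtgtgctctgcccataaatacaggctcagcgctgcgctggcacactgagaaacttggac
Fcgbp: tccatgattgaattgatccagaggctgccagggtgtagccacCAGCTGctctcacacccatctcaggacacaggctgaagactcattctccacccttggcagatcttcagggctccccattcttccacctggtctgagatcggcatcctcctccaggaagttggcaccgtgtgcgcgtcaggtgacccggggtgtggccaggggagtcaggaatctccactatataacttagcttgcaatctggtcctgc
Foxa3: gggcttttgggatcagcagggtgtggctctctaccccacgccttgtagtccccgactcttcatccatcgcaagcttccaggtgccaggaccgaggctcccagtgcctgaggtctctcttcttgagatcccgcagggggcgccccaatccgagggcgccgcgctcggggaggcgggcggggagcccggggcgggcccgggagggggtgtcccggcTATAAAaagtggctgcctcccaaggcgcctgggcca
On both strands 9 motifs were searched. They were the forkhead words TGTTTAC and TGTTTGC, the ETS words CCGGAA and CCGGAT, the E-boxes CAGATG and CAGCTG, the unfolded protein response word ACGTGG, the TATA word TATAAA, and the single unit of the p53 response element. The Agr2 window held none of them. The Fcgbp window held CAGCTG, which reads the same on both strands, starting 208 bases before the start site, and 13% of 32851 promoters of this length hold it. The Foxa3 window held TATAAA starting 36 bases before the start site, a word found in 12.4% of the promoters. These words are common and mark no site of binding. RefSeq windows were matched for 6 of the 10 genes.

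The comparisons against Trp53 +/+ shared the Trp53 +/+ libraries and are given side by side, since their values are not independent. Each difference was tested with limma on log2(rpkm+1) over all 6 libraries, with Benjamini-Hochberg adjustment over the 10042 entries, and a gene with an adjusted p under 0.05 is said to have risen or fallen. In Trp53 R270H/R270H against Trp53 +/+, Fcgbp and Spink4 fell, so that 2 of the 8 tested members fell and 0 rose, where 6.36% of all entries tested fell and 5.86% rose. The number of members at an unadjusted p under 0.05 was 3 lower and 0 higher. The share of all entries at that level was not counted, here or below, so such numbers cannot be weighed against it. The median log2 fold change of the 8 members was -0.47, and that of all entries was 0.03. Both Trp53 R270H/R270H libraries lay below both Trp53 +/+ libraries for 6 members, as for 37.6% of all entries, and above them for 1 (44.2%). In Trp53 flox/flox against Trp53 +/+, Agr2, Fcgbp and Spink4 fell and Foxa3 rose, 3 and 1 of the 8 members, where 6.9% of all entries fell and 4.38% rose. At an unadjusted p under 0.05, 4 members were lower and 1 was higher. The median was -1.002 for the members and -0.02 for all entries. Here 5 members had both libraries below (33.9% of all entries) and 1 had both above (30.6%). In bulk RNA, fewer cells of a type and less RNA in each cell cannot be told apart.

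**Figure D2:**
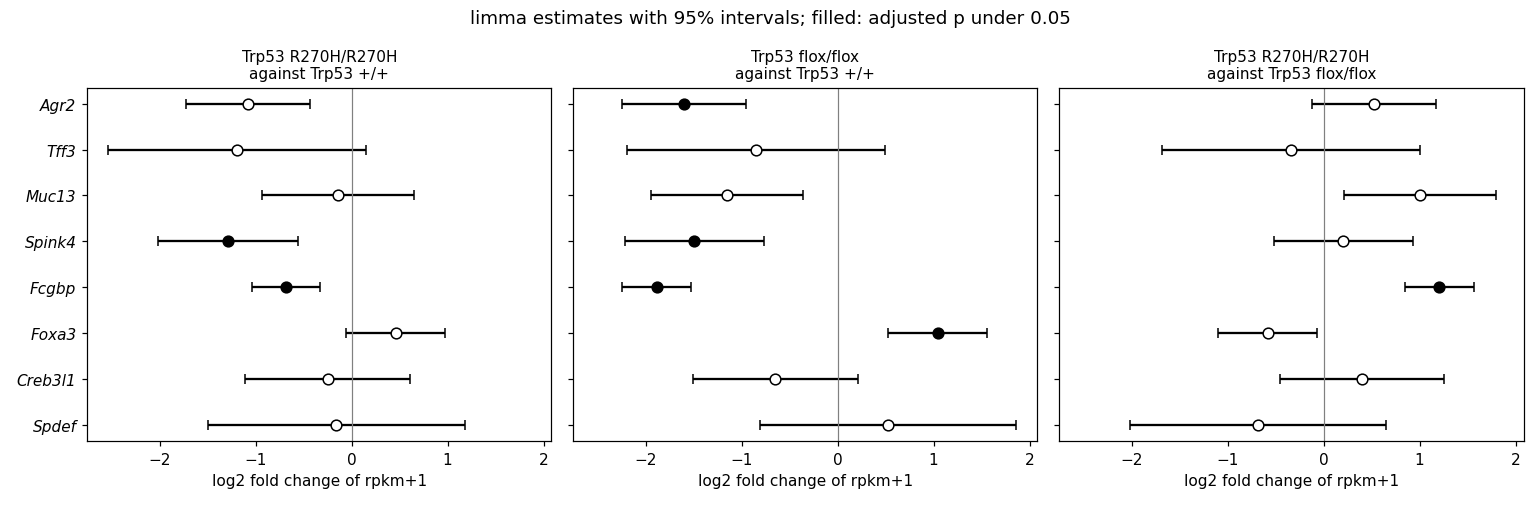
Log2 fold change of rpkm+1 (horizontal axes) for the 8 tested goblet cell genes in the 3 genotype comparisons, with 95% intervals from limma. Filled points have an adjusted p under 0.05. Fcgbp is filled in all 3 panels, at -0.68, -1.89 and 1.20, and the intervals of Tff3, Creb3l1 and Spdef cross 0 in all 3.

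Among the secreted products, Fcgbp separated the 3 genotypes. Fcgbp encodes a large mucus protein that becomes linked to the Muc2 network. Its level was 20.9 and 18.1 rpkm in Trp53 +/+, 11.5 and 12.0 rpkm in Trp53 R270H/R270H, and 4.04 and 5.06 rpkm in Trp53 flox/flox. No library of one genotype overlapped another. Fcgbp was 1.66-fold lower in Trp53 R270H/R270H than in Trp53 +/+ (log2 fold change -0.68, SE 0.14, limma adjusted p = 0.0405) and 4.28-fold lower in Trp53 flox/flox (-1.89, SE 0.14, adjusted p = 0.0062). Between the mutant genotypes it was 2.58-fold higher in Trp53 R270H/R270H (1.20, SE 0.14, adjusted p = 0.0084). That difference made Fcgbp the 1 member of 8 to differ between the mutant genotypes, where 13.6% of all entries were higher and 11% lower in Trp53 R270H/R270H. At an unadjusted p under 0.05, 2 members were higher and 1 was lower, and the libraries did not overlap for 3 that were above (36.8% of all entries) and 1 below (31.2%). Without any one of the Trp53 +/+ or Trp53 R270H/R270H libraries the adjusted p of Fcgbp lay between 0.217 and 0.309 for R270H against +/+ and between 0.0635 and 0.112 for flox/flox against +/+. The adjusted p between the mutant genotypes was 0.112 without Trp53 R270H/R270H 1 and 0.0868 without Trp53 R270H/R270H 2, fits in which 1.35% and 1.69% of all entries were higher. Nearly every call against Trp53 +/+ was lost over the whole table in these 4 fits, so the losses are not particular to Fcgbp or to the genes below: of all entries, 0 to 0.388% were then lower for R270H against +/+ and 0.0797 to 0.289% for flox/flox against +/+. Without either Trp53 flox/flox library the shares were instead 25.8 to 25.9% and 21.3 to 36.9%. Over the 16 alternatives these adjusted p-values ranged from 0.000535 to 0.309, from 0.000356 to 0.112 and from 0.000625 to 0.112, and the log2 fold changes from -0.78 to -0.58, from -2.10 to -1.75 and from 1.07 to 1.37.

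Spink4, a small protein of the serine protease inhibitor family found in goblet cell granules, was low in both mutant genotypes. It read 40.4 and 28.6 rpkm in Trp53 +/+, 13.2 and 13.5 rpkm in Trp53 R270H/R270H, and 8.65 and 15.0 rpkm in Trp53 flox/flox. Both Trp53 +/+ libraries lay above the other 4, and the ranges of the mutant genotypes overlapped. Spink4 fell 2.59-fold in Trp53 R270H/R270H (log2 fold change -1.29, SE 0.29, limma adjusted p = 0.0482) and 2.91-fold in Trp53 flox/flox (-1.49, SE 0.29, adjusted p = 0.0367). With a limma weight for the spread of each genotype, the call in Trp53 flox/flox was lost (adjusted p = 0.172), and 1.15% of all entries were lower there. Between the mutant genotypes the difference was 0.20 (95% interval -0.52 to 0.93), with an adjusted p of 0.605. Without any one of the Trp53 +/+ or Trp53 R270H/R270H libraries, where nearly all calls against Trp53 +/+ were lost, the adjusted p-values were 0.213 to 0.299 for R270H and 0.134 to 0.253 for flox/flox. Over all alternatives they ranged from 0.000525 to 0.299 and from 0.00148 to 0.253.

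Tff3, the trefoil peptide that goblet cells release with mucin, did not pass the test in any comparison. Its level was 122 and 98.0 rpkm in Trp53 +/+, 44.0 and 50.8 rpkm in Trp53 R270H/R270H, and 107 and 33.5 rpkm in Trp53 flox/flox. The Trp53 R270H/R270H libraries lay below both Trp53 +/+ libraries, whereas the Trp53 flox/flox pair spanned most of the range of the other 4. The log2 fold change was -1.19 in Trp53 R270H/R270H (95% interval -2.54 to 0.15, adjusted p = 0.196) and -0.85 in Trp53 flox/flox (-2.20 to 0.49, adjusted p = 0.296). When limma was fitted to the Trp53 R270H/R270H and Trp53 +/+ libraries alone, without the spread of Trp53 flox/flox, Tff3 was called lower (adjusted p = 0.000546 to 0.559 over the alternatives, 0.000583 in this fit). In that fit 26.8% of all entries were lower and 32.3% higher, and 5 members were lower and 1 higher. Without Trp53 flox/flox 1 the log2 fold change of Tff3 against Trp53 +/+ was -1.68 (adjusted p = 0.00315), and without Trp53 flox/flox 2 it was -0.03 (adjusted p = 0.883), so its value in Trp53 flox/flox depended on which library was kept.

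Agr2, the folding enzyme, was at 223 and 200 rpkm in Trp53 +/+, 106 and 93.4 rpkm in Trp53 R270H/R270H, and 53.03 and 89.2 rpkm in Trp53 flox/flox. The 3 genotypes did not overlap, with Trp53 flox/flox lowest. Against Trp53 +/+, Agr2 fell 2.97-fold in Trp53 flox/flox (log2 fold change -1.60, SE 0.26, limma adjusted p = 0.0274). With a limma weight for the spread of each genotype, Agr2 was not called there (adjusted p = 0.0527), and 1.15% of all entries were lower. In Trp53 R270H/R270H its level was 47.1% of that in Trp53 +/+, a log2 fold change of -1.08 (95% interval -1.73 to -0.43) that missed the threshold with an adjusted p of 0.0551. In the fit to these 2 genotypes alone the adjusted p was 0.000258, and the alternatives spanned 8.75e-05 to 0.316. Between the mutant genotypes the difference was 0.52 (-0.13 to 1.17, adjusted p = 0.177). In the same 4 fits the adjusted p in Trp53 flox/flox was 0.115 to 0.241, and over the alternatives it ranged from 0.000372 to 0.241. Across the 6 libraries the profiles of Agr2 and Spink4 were the most alike of any 2 tested members, with a root mean square difference of 0.172 on the log2 scale after centring.

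Muc13, the membrane mucin, was low in Trp53 flox/flox. Its level was 72.0 and 66.1 rpkm in Trp53 +/+, 63.9 and 60.8 rpkm in Trp53 R270H/R270H, and 42.9 and 21.6 rpkm in Trp53 flox/flox. The Trp53 flox/flox libraries lay below the other 4. Muc13 was at 46.7% of the Trp53 +/+ level in Trp53 flox/flox, but the difference did not pass the test (log2 fold change -1.15, 95% interval -1.94 to -0.36, limma adjusted p = 0.0738), nor did that between the mutant genotypes (1.01, 0.21 to 1.80, adjusted p = 0.0701). With Trp53 flox/flox 1 or 2 left out, the log2 fold changes were -1.63 and -0.67 against Trp53 +/+ and 1.48 and 0.53 between the mutants. Their size thus depended on which library was kept, and these values were the extremes over the alternatives. In Trp53 R270H/R270H against Trp53 +/+ the log2 fold change was -0.15 (-0.94 to 0.65, adjusted p = 0.789). An antisense gene, Gm15657, overlaps Muc13. The library kit keeps strand, and whether the counting used it is not given in the sources used here.

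Of the transcription factors, Foxa3 ran opposite to the products. Foxa3 is a forkhead factor that promotes goblet cell differentiation and is also active in other endodermal cells. It read 17.4 and 12.9 rpkm in Trp53 +/+, 19.3 and 22.7 rpkm in Trp53 R270H/R270H, and 36.4 and 27.99 rpkm in Trp53 flox/flox. The genotypes did not overlap, with Trp53 flox/flox highest. Foxa3 was 2.13-fold higher in Trp53 flox/flox than in Trp53 +/+ (log2 fold change 1.04, SE 0.20, limma adjusted p = 0.0377). In Trp53 R270H/R270H the log2 fold change was 0.46 (95% interval -0.06 to 0.98, adjusted p = 0.195), and between the mutant genotypes it was -0.58 (-1.10 to -0.07, adjusted p = 0.0913). With any one Trp53 +/+ or Trp53 R270H/R270H library left out, the adjusted p in Trp53 flox/flox was 0.128 to 0.279, within 0.00467 to 0.279 over the alternatives. When limma gave each genotype a weight from its own spread, Foxa3 was not called in Trp53 flox/flox (adjusted p = 0.252). In that weighted fit 0.349% of all entries were higher there. The limma fit to Trp53 R270H/R270H and Trp53 +/+ alone called Foxa3 higher (adjusted p = 0.0366), as it did 32.3% of all entries. Over the alternatives the log2 fold change ranged from 0.26 to 0.67 in that comparison and from -0.77 to -0.40 between the mutant genotypes. The profile of Foxa3 was farthest from that of Fcgbp, at 1.22 on the centred log2 scale.

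Creb3l1, a membrane-bound factor of the secretory pathway, was at 8.07 and 8.17 rpkm in Trp53 +/+, 6.26 and 7.09 rpkm in Trp53 R270H/R270H, and 3.08 and 7.30 rpkm in Trp53 flox/flox. Both Trp53 +/+ libraries lay above the other 4, by a margin that in Trp53 flox/flox came mostly from library 1. Its log2 fold changes were -0.25 (95% interval -1.11 to 0.61, limma adjusted p = 0.657) in Trp53 R270H/R270H and -0.65 (-1.50 to 0.21, adjusted p = 0.230) in Trp53 flox/flox. Without Trp53 flox/flox 1 the latter was -0.14, and without Trp53 flox/flox 2 it was -1.16, so its size depended on which library was kept. In the limma fit to Trp53 R270H/R270H and Trp53 +/+ alone, Creb3l1 was called lower (adjusted p = 0.0382), as were 26.8% of all entries. Its log2 fold change there ranged from -0.33 to -0.17 over the alternatives.

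Spdef stood near the floor. It read 1.80 and 1.03 rpkm in Trp53 +/+, 1 and 1.28 rpkm in Trp53 R270H/R270H, and 1 and 4.89 rpkm in Trp53 flox/flox. A single library was high, and the genotypes overlapped in every comparison. Its log2 fold change against Trp53 +/+ was 0.53 in Trp53 flox/flox (95% interval -0.81 to 1.86, limma adjusted p = 0.498) and -0.16 in Trp53 R270H/R270H (-1.49 to 1.18, adjusted p = 0.870). Without Trp53 flox/flox 2 the value in Trp53 flox/flox turned to -0.25 (adjusted p = 0.327), and without Trp53 flox/flox 1 it was 1.31 (adjusted p = 0.0107), so its direction depended on 1 library.

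**Figure D3:**
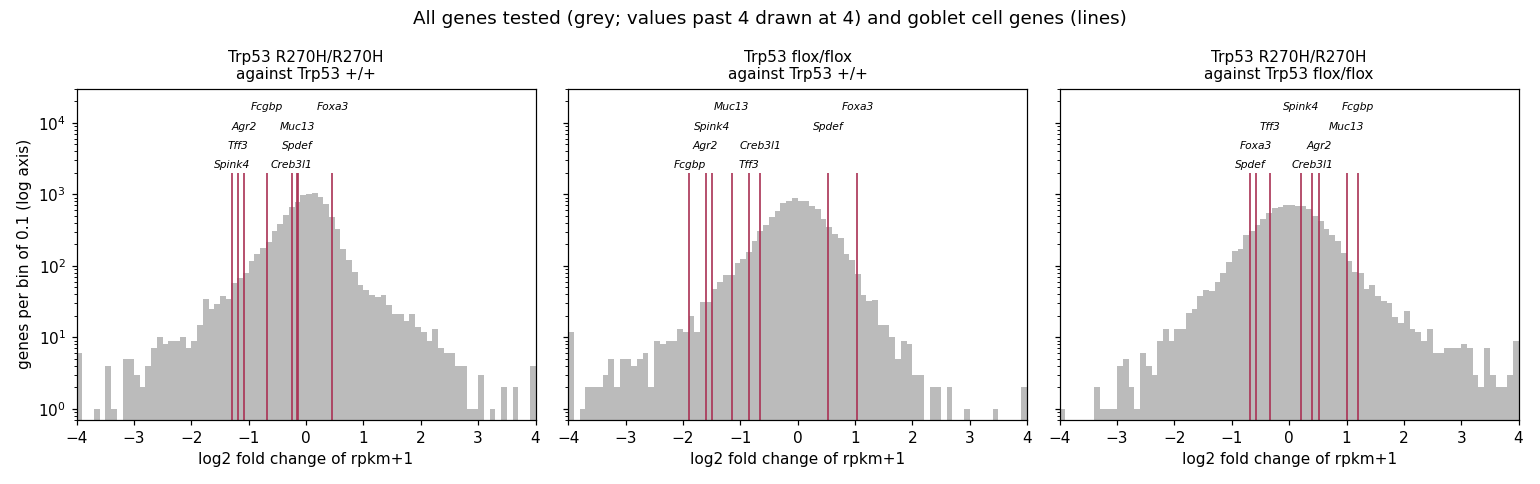
Number of genes (vertical axis, log scale) in bins of the log2 fold change of rpkm+1 (horizontal axis) for all 10042 entries tested (grey), with the 8 tested goblet cell genes as lines, in the 3 comparisons. In Trp53 flox/flox against Trp53 +/+ the members run from -1.89 (Fcgbp) to 1.04 (Foxa3), and their median of -1.002 lies left of the median of all entries at -0.02.

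Other genes of the secretory lineage and of mucus moved in part. Of 8 secretory factors 5 were tested, since Atoh1, Gfi1 and Dll4 stayed under 4 rpkm. Klf4, a factor of goblet cell maturation, was at 13.01 and 14.6 rpkm in Trp53 +/+, 28.2 and 25.1 rpkm in Trp53 flox/flox, and 12.7 and 12.5 rpkm in Trp53 R270H/R270H. The Trp53 flox/flox libraries stood above the rest, and Klf4 rose there against Trp53 +/+ (log2 fold change 0.90, limma adjusted p = 0.0177, alternatives 0.000967 to 0.196) and was lower in Trp53 R270H/R270H than in Trp53 flox/flox (-1.02, adjusted p = 0.0074, alternatives 0.000657 to 0.104). Hes1, the Notch target that holds back secretory fate, showed the reverse order. Hes1 was at 42.1 and 41.0 rpkm in Trp53 +/+, 28.4 and 28.3 in Trp53 flox/flox, and 46.6 and 52.0 in Trp53 R270H/R270H. It fell in Trp53 flox/flox (-0.54, adjusted p = 0.0352, alternatives 0.00433 to 0.284) and was higher in Trp53 R270H/R270H than there (0.78, adjusted p = 0.0103, alternatives 0.00126 to 0.0855). The other 3 factors, Xbp1, Dll1 and Sox9, did not pass in any comparison. In Trp53 R270H/R270H against Trp53 +/+, 0 of the 5 passed in limma, with 1 higher and 1 lower at an unadjusted p under 0.05.

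Of 12 further goblet cell products, 4 were tested (Clca1, Ern2, Klk1 and Tff1), and 5 were at the floor in all libraries, Retnlb among them. Klk1, a secreted kallikrein protease, was at 25.7 and 22.3 rpkm in Trp53 +/+, 3.13 and 5.50 rpkm in Trp53 flox/flox, and 7.28 and 8.20 rpkm in Trp53 R270H/R270H. The 3 genotypes did not overlap. Klk1 fell 5.57-fold in Trp53 flox/flox (log2 fold change -2.27, limma adjusted p = 0.0127, alternatives 0.000299 to 0.159) and 3.10-fold in Trp53 R270H/R270H (-1.52, adjusted p = 0.0222, alternatives 2.52e-05 to 0.212). Clca1, the mucus metalloprotease, was at 6.59 and 5.10 rpkm in Trp53 +/+, 4.21 and 1.81 in Trp53 flox/flox, and 3.82 and 4.78 in Trp53 R270H/R270H, and did not pass. The remaining pair lay the other way. Ern2, a sensor of endoplasmic reticulum stress in mucus-making cells, was at 2.42 and 2.15 rpkm in Trp53 +/+, 1.06 and 4.88 in Trp53 flox/flox, and 3.46 and 4.36 in Trp53 R270H/R270H. Tff1, a trefoil peptide mainly of the stomach, was at the floor in both Trp53 +/+ libraries, at 1 and 5.83 rpkm in Trp53 flox/flox and at 1.70 and 1.94 in Trp53 R270H/R270H. Neither passed in any comparison. In Trp53 R270H/R270H both libraries thus lay above both Trp53 +/+ libraries for 2 of the 4 products (44.2% of all entries) and below for 2 (37.6%). The median log2 fold change was 0.06. In Trp53 flox/flox 0 lay above (30.6% of all entries) and 2 below (33.9%), with a median of -0.37.

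The enzymes that build O-linked sugars on mucins were 12 genes, of which 9 were tested and 1, Gcnt3, passed in each comparison. Gcnt3 makes the branched core structures of mucin glycans. It read 44.1 and 47.0 rpkm in Trp53 +/+, 29.8 and 22.1 rpkm in Trp53 flox/flox, and 10.05 and 8.47 rpkm in Trp53 R270H/R270H. Here Trp53 R270H/R270H was lowest, unlike for Agr2 and Fcgbp. Gcnt3 fell 4.92-fold in Trp53 R270H/R270H (log2 fold change -2.19, limma adjusted p = 0.0043, alternatives 3.91e-06 to 0.0759) and 1.75-fold in Trp53 flox/flox (-0.80, adjusted p = 0.0463, alternatives 0.00465 to 0.325), and it was lower in Trp53 R270H/R270H than in Trp53 flox/flox (-1.38, adjusted p = 0.0095, alternatives 0.000494 to 0.0964). The call of Gcnt3 in Trp53 flox/flox against Trp53 +/+ was lost in 14 of the 16 alternatives. Of the 8 other mucins in the table, 1 reached the filter. That gene, Muc6 of gastric and duodenal glands, was at 9.17 and 7.88 rpkm in Trp53 +/+, 1 and 8.96 in Trp53 flox/flox, and 16.6 and 19.9 in Trp53 R270H/R270H, and it passed in 0 comparisons. Muc6 and Muc5ac flank Muc2 on chromosome 7.

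**Figure D4:**
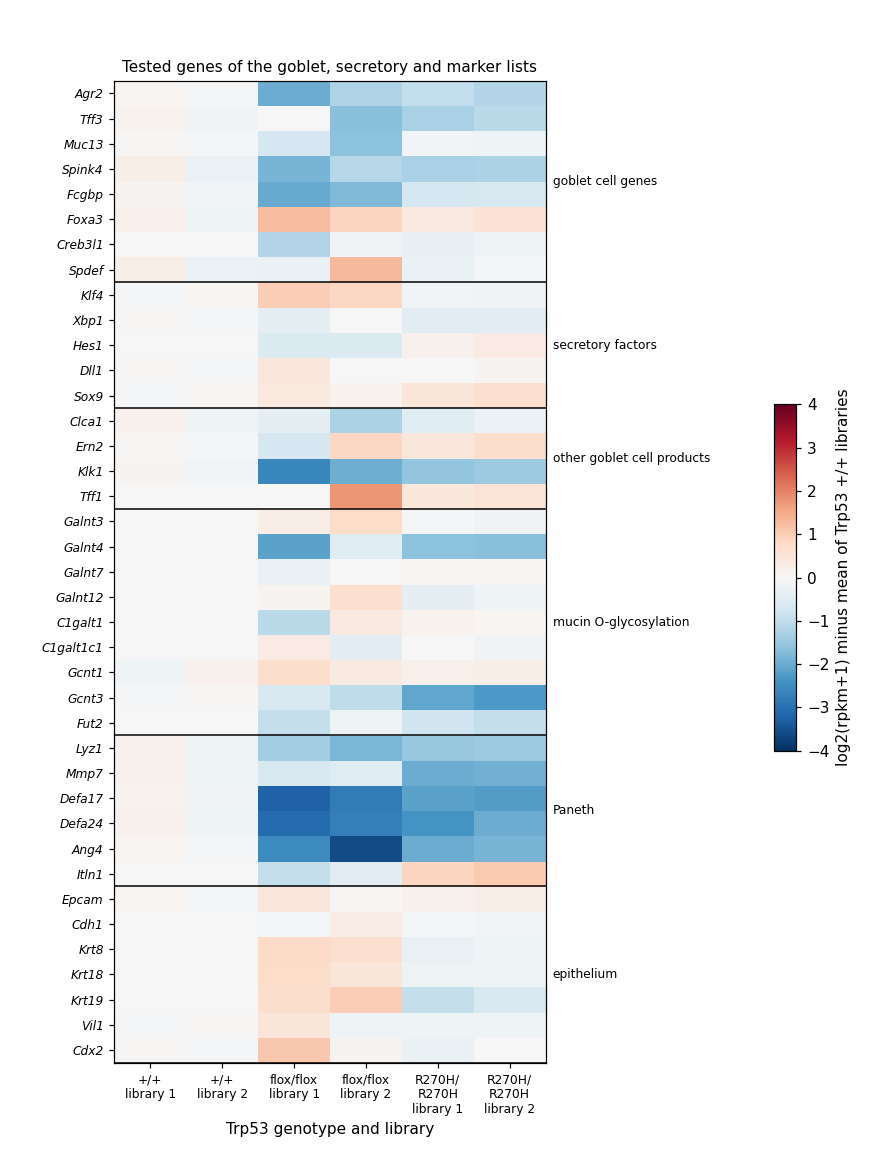
Difference in log2(rpkm+1) from the mean of the 2 Trp53 +/+ libraries (colour, from -4 to 4) for the tested genes of 6 lists (rows) in the 6 libraries (columns). Agr2, Spink4, Fcgbp and Klk1 are blue in all 4 libraries without wild-type Trp53, as are Lyz1 and the defensins of Paneth cells, and Foxa3 and Klf4 are red in Trp53 flox/flox.

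Markers of Paneth cells, the antimicrobial secretory cells of the crypt, had a lower sum in both mutant genotypes, as had the goblet cell genes. The 6 Paneth cell markers (Lyz1, Mmp7, Defa17, Defa24, Ang4 and Itln1) summed to 1765 and 1413 rpkm in Trp53 +/+, 599 and 628 rpkm in Trp53 flox/flox, and 521 and 577 rpkm in Trp53 R270H/R270H. All 6 were tested, and 5 fell (6.36% of all entries) and 1, Itln1, rose (5.86%) in Trp53 R270H/R270H. In Trp53 flox/flox 4 (Lyz1, Defa17, Defa24 and Ang4) fell (6.9%). Between the mutant genotypes Defa17 and Itln1 were higher (13.6% of all entries) and Mmp7 lower (11%) in Trp53 R270H/R270H. Of 7 epithelial markers, Krt19 fell in Trp53 R270H/R270H (6.36% of all entries), and Krt8 and Krt19 rose in Trp53 flox/flox (4.38%). There the sum of the list was 4268 and 4019 rpkm, against 2731 and 2693 in Trp53 +/+. Krt8, Krt18 and Krt19 were lower in Trp53 R270H/R270H than in Trp53 flox/flox (11%). Enterocyte markers summed to 39.3 and 49.8 rpkm in Trp53 +/+, 19.2 and 8.31 in Trp53 flox/flox, and 32.8 and 22.6 in Trp53 R270H/R270H, and 3 of the 6 were at the floor throughout; of the 3 tested, Alpi fell in Trp53 flox/flox. Chgb, the 1 enteroendocrine marker of 5 to be tested, fell in both mutant genotypes. The 4 stem cell markers did not move together. Against Trp53 +/+, Olfm4 rose in Trp53 R270H/R270H (log2 fold change 2.49, limma adjusted p = 0.0199), while Smoc2 (1.07, adjusted p = 0.0901), Ascl2 (-0.95, adjusted p = 0.0512) and Lgr5 (-0.26, adjusted p = 0.515) did not pass. None of the 4 passed in limma in Trp53 flox/flox, where 2 were higher and 0 lower at an unadjusted p under 0.05. Between the mutant genotypes Olfm4 was higher (1.95, adjusted p = 0.0242) and Ascl2 lower (-1.72, adjusted p = 0.0098) in Trp53 R270H/R270H. Of the 4 tuft cell markers 0 reached the filter. Outside the epithelium, Col1a2, Col3a1, Ptprc, Cd3e and Pecam1 were at the floor in all libraries. Cdh5 of endothelium was at 8.88 and 9.35 rpkm in Trp53 +/+, 1 and 3.30 in Trp53 flox/flox, and 1.04 and 1 in Trp53 R270H/R270H. Like Agr2, Spink4 and Fcgbp it was highest in Trp53 +/+, and it fell in both mutant genotypes (log2 fold change -2.32, limma adjusted p = 0.0224 in Trp53 R270H/R270H and -1.79, adjusted p = 0.0411 in Trp53 flox/flox). Cd68 of macrophages was at 10.2 and 9.87 rpkm in Trp53 +/+, 2.06 and 11.1 in Trp53 flox/flox, and 2.22 and 2.41 in Trp53 R270H/R270H, below both controls in the latter without passing (-1.74, adjusted p = 0.130). The part of these markers in the values of the goblet cell genes was not tested.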

How the data were processed

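Poly(A) RNA from 6 organoid cultures (2 mice for each Trp53 genotype) was sequenced with a stranded kit. The authors mapped reads to mm10 and deposited rpkm values made with StrandNGS, whose version, annotation and filters are not given in the sources used here; the lowest deposited rpkm is 1. No counts were used, so p-values rest on the spread between libraries. Of 36172 entries, the 10042 that reached 4 rpkm in 1 library or more were fitted with limma 3.58.1 in R 4.3.3 (lmFit, eBayes with trend, log2(rpkm+1), genotype as the only term, all 6 libraries, two-sided), with Benjamini-Hochberg adjustment and a threshold of 0.05. Fold changes come from mean rpkm, and log2 fold changes, which the pseudocount of 1 pulls towards 0, from the fit. An exact permutation test of 2 against 2 libraries cannot go below p = 0.333. The fit was tested on simulated data. The goblet cell genes and all lists were chosen with earlier results of these data known. Named genes were all 10 members, Trp53, and the list genes that passed; genes most like Muc2 were to be named, but Muc2 did not reach the filter. Positions are from GENCODE on GRCm38 and promoters from RefSeq on GRCm38.p6. Muc3a and Muc17 were not found by symbol. Replicate numbers come from different mice and do not pair libraries.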

Additional observations from a re-analysis of the deposited data

How the results depend on the processing

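The calls rest on 2 libraries for each genotype, a spread that differed between genotypes, and rpkm values without depth, so genes near the floor of 1 rpkm are limited by the table. Counts below are of goblet cell genes called higher and lower, against 0 and 2 in Trp53 R270H/R270H against Trp53 +/+, 1 and 3 in Trp53 flox/flox against Trp53 +/+, and 1 and 0 in Trp53 R270H/R270H against Trp53 flox/flox. Median-of-ratios scaling and a prior without trend gave the same counts. A pseudocount of 0.1 or none gave 1 lower in the first comparison, where 6.1% and 6.03% of all entries were lower. Keeping every entry above 1 rpkm in a library gave 1 lower in the first and 2 higher in the third. The second entry of Muc2 was added in the third (log2 fold change 0.22, limma adjusted p = 0.0432). Of all entries, 6.99% were then lower in the first and 15.4% higher in the third. With no filter, 0 and 0 were called in the first and in the second. Of all entries, only 0.73% and 0.451% were then called in the first, and 0.0498% and 0.152% in the second. Genotype weights gave 1 and 4, 0 and 1, and 0 and 0. The shares of all entries called were 31.9% and 27.8%, 0.349% and 1.15%, and 3.75% and 1.56%. Fitting only the 2 genotypes compared gave 1 and 5, 0 and 1, and 1 and 0. Of all entries, 32.3% and 26.8%, 0.134% and 0.475%, and 2.6% and 1.43% were called in these fits. Spdef then had no value in the first because it did not reach the filter. Causes were not tested.

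With the replicate number as a block, 0 were lower in the first comparison, 0 higher and 1 lower in the second, and 1 higher in the third, with 2.94% of all entries lower in the first and 0.707% higher and 2.08% lower in the second. Deviations of same-numbered libraries correlated at 0.12, -0.29 and -0.20 between genotypes, so the numbers do not pair them. With the Trp53 R270H/R270H numbers exchanged, an alternative chosen after seeing the data, the counts were 0 and 0, 1 and 2, and 1 and 1. The shares of all entries called were then 4.06% and 5.31%, 3.76% and 4.93%, and 11.7% and 10.9%.

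Leaving out 1 library at a time left 1 genotype with 1 library. In each comparison the most members were called without a Trp53 flox/flox library, where the largest shares of the whole table were called too. In the first and second, 0 members were called without any one of the Trp53 +/+ or Trp53 R270H/R270H libraries, and 5 were lower without either Trp53 flox/flox library. Of all entries, 0 to 0.388% and 0.0797 to 0.289% were lower in the former fits, and 25.8 to 25.9% and 21.3 to 36.9% in the latter. The lone library of a genotype is then assumed to vary like the others. Directions turned for 5 genes, each in a comparison where it was not called in the fit to all libraries. The log2 fold changes with 1 library left out ranged from -0.39 to 0.074 for Spdef (turned without Trp53 +/+ 1) and from -0.045 to 0.137 for Trp53 (turned without Trp53 R270H/R270H 2) in the first comparison. They ranged from -0.25 to 1.31 in the second and from -1.46 to 0.095 in the third for Spdef (turned without Trp53 flox/flox 2). In the third they ranged from -1.16 to 0.48 for Tff3, from -0.16 to 0.57 for Spink4 and from -0.11 to 0.91 for Creb3l1, all turned without Trp53 flox/flox 1. The alternatives for Trp53, Klf4, Hes1, Klk1 and Gcnt3 were added after seeing the data.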

Other observations

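Agr2 was taken in place of Muc2 for a search of like profiles, a choice made after its values were seen. Over the 6 libraries, the tested genes with the smallest root mean square difference of centred log2(rpkm+1) from Agr2 were Rev1 (0.103), Ccnd2 (0.140), Rb1 (0.140), Rnf169 (0.142) and Cd38 (0.145), and none of them is a goblet cell product by its known role. Ccnd2, a D-type cyclin, was at 198 and 240 rpkm in Trp53 +/+, 50.8 and 86.4 in Trp53 flox/flox, and 103 and 100.3 in Trp53 R270H/R270H, close to the levels of Agr2 in each genotype. The same search gave Agr2 (0.172) as the gene nearest to Spink4, and Cpm (0.130) as that nearest to Fcgbp. These likenesses are descriptions over 6 libraries that share their genotypes.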
